A study of Rattus norvegicus with 6 samples.

Results

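The genes described here are 40 genes of the endoplasmic reticulum (ER), chosen by name: chaperones and disulfide isomerases, the translocon, ER-associated degradation, the sensors and transcription factors of the unfolded protein response, and proteins that shape the ER. Of these, 36 matched a probe by transcript accession and all 36 were bright enough to be tested, beside 16389 tested genes and features in all. The other 4 (Manf, Derl2, Edem1 and Sec62) were matched to no probe and are not analysed here. The data are 6 expression arrays of liver from male Wistar Hannover rats bought at 4 weeks of age and quarantined for 1 week. Control rats (3) received the vehicle, corn oil, by oral gavage for 7 days, and PCN rats (3) received pregnenolone-16α-carbonitrile at 100 mg/kg/day in the same way. PCN, a synthetic steroid, is the classical agonist of PXR in rodents, the nuclear receptor that senses foreign compounds. Whole liver was used, so a change in the share of a cell type and a change in RNA per cell cannot be told apart.

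The ER folds and glycosylates the proteins that the hepatocyte secretes, and its smooth part carries the cytochromes P450. Inducers of P450s are known to expand the smooth ER of hepatocytes. Proteins enter the ER through the Sec61 channel, are folded by chaperones such as BiP (Hspa5) and by disulfide isomerases, and are returned to the cytosol for degradation if they fail. Accumulating misfolded protein activates the sensors ATF6, IRE1 (Ern1) and PERK (Eif2ak3), which raise chaperones through ATF6 and XBP1 and amino acid genes through ATF4. The comparison asks which of these transcripts differed in liver after 7 days of PCN.

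A first look at the regulatory sequence of these genes used the RefSeq promoter windows of assembly GRCr8, in which 32 of the 40 genes had an entry. The 250 bases before each annotated start were searched on both strands for 4 motifs known from this response. The ER stress response element (ERSE), CCAAT and CCACG with 9 bases between them, is the site through which ATF6 acts with the CCAAT-binding factor NF-Y. It was found in 21 of 27457 windows (0.0765%), and 7 of those 21 belonged to the genes described here. The motif is known from this response and the genes were chosen by name, so this overlap was to be foreseen and is no result of these data. Genes without an entry could not be searched. The letters are shown only to name the 7 genes that carry them, whose values are listed together below. All are given 5′ to 3′ on the strand of the gene, in capitals throughout because the whole run is the match, so that a match on the opposite strand reads CGTGG first.
Hspa5: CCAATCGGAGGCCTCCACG
Hsp90b1, farther match: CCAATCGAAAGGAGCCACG
Hsp90b1, nearer match: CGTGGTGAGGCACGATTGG
Dnajc3: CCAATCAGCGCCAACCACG
Creld2: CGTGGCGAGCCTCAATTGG
Calr: CGTGGTCGACCCTGATTGG
Canx: CCAATCATCACGCTCCACG
Xbp1: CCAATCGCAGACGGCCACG

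The match in Hspa5 lies 43 to 25 bases before its start and that in Xbp1 65 to 47 bases before it. The 250 bases of Hspa5, with the match in capitals, are given whole because it is the standard reporter of this response (chr3:38452766-38453015, plus strand, GRCr8).
Hspa5: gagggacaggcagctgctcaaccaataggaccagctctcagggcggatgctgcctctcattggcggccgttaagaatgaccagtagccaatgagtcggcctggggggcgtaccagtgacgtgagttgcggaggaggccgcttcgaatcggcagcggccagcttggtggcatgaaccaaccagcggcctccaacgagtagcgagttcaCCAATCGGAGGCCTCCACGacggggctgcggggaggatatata
Those of Xbp1 (chr14:84604373-84604622, plus strand) are given for comparison, since the estimates of the 2 transcripts lay on opposite sides of 0.
Xbp1: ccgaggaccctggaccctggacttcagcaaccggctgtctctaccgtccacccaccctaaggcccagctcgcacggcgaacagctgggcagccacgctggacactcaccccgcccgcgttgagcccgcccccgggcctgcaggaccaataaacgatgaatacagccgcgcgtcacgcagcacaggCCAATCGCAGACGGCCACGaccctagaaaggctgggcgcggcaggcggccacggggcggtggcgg
The window of Herpud1 (chr19:10614708-10614957, minus strand) holds the related ERSE-II motif, ATTGG and CCACG with 1 base between them, and the amino acid response motif TGATGNAA, through which ATF4 acts, in its opposite-strand form TTGCATCA, both in capitals.
Herpud1: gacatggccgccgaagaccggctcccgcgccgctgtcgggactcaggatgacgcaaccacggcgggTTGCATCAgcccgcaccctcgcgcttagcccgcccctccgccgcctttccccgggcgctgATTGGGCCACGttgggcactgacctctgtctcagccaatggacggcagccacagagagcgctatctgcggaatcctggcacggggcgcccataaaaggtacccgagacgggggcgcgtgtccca
ERSE-II occurred in 12 of all windows (0.0437%), among them those of Herpud1 and Hyou1, and TGATGNAA in 899 (3.27%), among them those of Herpud1 and Trib3. The fourth motif, TGACGTGG, which XBP1 is known to bind, was in 151 windows (0.55%), 3 of them of genes described here (Vcp, Ckap4 and Hyou1), and in Hyou1 it overlaps an ERSE-II match by some bases. The window of Ckap4 reads as an open frame without a stop codon, from an ATG near its far end through the match. That match may therefore be coding sequence rather than promoter. A match is a description of letters only.

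Few of the ER genes changed with PCN. Of 36 tested, 1 rose (Sec61g) and 1 fell (Rtn4), which is 5.56%, against 19.9% of all tested genes called in either direction (limma, Benjamini-Hochberg adjusted p under 0.05). Over all genes 4.37% were called higher and 15.5% lower. The median log2 fold change of the 36 was −0.06 and that of all tested genes −0.06. The arrays of the groups did not overlap for 13 of the 36 (36.1%), 7 higher and 6 lower with PCN, against 41.4% of all tested genes. All 36 estimates were smaller than 2-fold, and for 30 of them the 95% confidence interval also lay within a 2-fold change either way. As a check of treatment, Cyp3a23-3a1, the P450 that PCN is known to induce, was 19.8-fold higher in the PCN group.

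The count of called ER genes depended on how arrays were scaled. Scaling to the array median, which moved the median of all genes by 0.15 upward, called 6 higher and 1 lower (19.4%, against 23% of all genes). Scaling to the E1A spike-ins, which moved it by −0.25, called 0 higher and 7 lower (19.4%, against 29%), Sec61g then giving adjusted p = 0.143. Both shift all genes of an array alike, so the gap between the median of the ER genes and that of all genes is 0.01 in each by construction. That gap was −0.08 with quantile normalization, −0.06 with cyclic loess, −0.07 with normexp, −0.07 without PCN replicate 1 and 0.09 without PCN replicate 2. The split of calls over all genes, 716 higher and 2547 lower, became 1784 and 1992 with median scaling, 1426 and 1772 with quantile normalization (median of all genes moved by 0.11), 1093 and 2027 with cyclic loess, 794 and 1435 with normexp background correction, and 169 and 4579 with spike-in scaling.

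**Figure D1:**
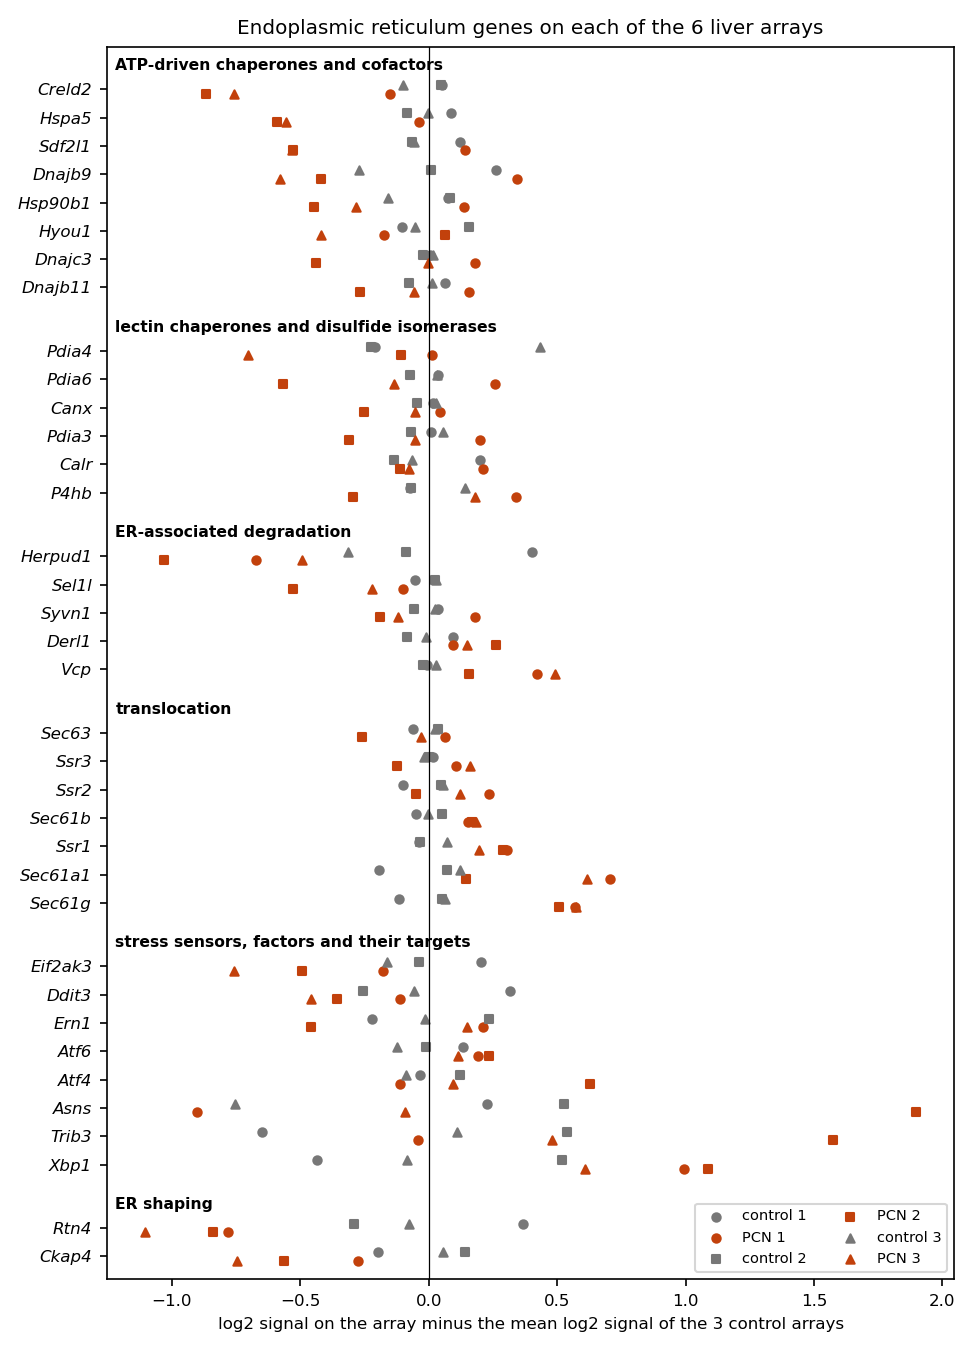
Each of the 36 tested ER genes on each of the 6 arrays, as log2 signal minus the mean of the 3 control arrays (horizontal axis), grouped by role; grey marks are control rats, orange marks PCN rats, and the mark's shape gives the replicate number. Sec61g and Rtn4 have all 3 PCN arrays well apart from the controls, while most chaperones lie on both sides of the control mean and Asns has the widest range between PCN rats, 2.80.

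Of the chaperones and folding enzymes among the 40 genes, 0 of 14 tested passed the test, where 19.9% of all tested genes did. With spike-in scaling Hspa5 and Creld2 were called lower, by 0.64 and 0.84 (limma adjusted p = 0.0283 and 0.0169). In the first list, of ATP-driven chaperones and their cofactors, 0 of 8 were called by limma (1 at an unadjusted p under 0.05). All 8 estimates lay below 0, as did 9447 of 16389 over all tested genes, and the median was −0.21. Hspa5, the ER's main Hsp70 chaperone, had log2 signals relative to the array's 75th percentile of 5.67, 5.50 and 5.58 in control rats 1 to 3 and of 5.54, 4.99 and 5.02 in PCN rats 1 to 3. PCN rat 1 lay among the controls and the other 2 below them, and the change was −0.39 ± 0.17 (SE, n = 3 per group; limma adjusted p = 0.149). Creld2, a secreted protein induced by ER stress, gave 0.67, 0.67 and 0.52 in controls and 0.47, −0.25 and −0.14 with PCN. Its groups did not overlap, and the change was −0.59 ± 0.20 (limma adjusted p = 0.0794). Sdf2l1, a cofactor of BiP, stood at 3.20, 3.02 and 3.03 in controls and at 3.23, 2.55 and 2.55 with PCN. Here PCN rat 1 was the highest array of all 6 and the other 2 the lowest, at a change of −0.31 ± 0.20. Its second, dimmer probe gave −0.09 ± 0.20. Without PCN replicate 1, Hspa5, Sdf2l1 and Creld2 were called lower, by 0.57, 0.53 and 0.81 (limma adjusted p = 0.0275, 0.0373 and 0.0121). PCN rat 1 was the highest PCN rat for all 3, so leaving it out could only lower these estimates. That fit called 15.8% of all tested genes, and 0 of the 14 folding genes were called without PCN replicate 2 or 3.

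The remaining ATP-driven members gave smaller differences. Hsp90b1 (GRP94), the ER's Hsp90, gave −0.20 ± 0.17, and Hyou1, a nucleotide exchange factor of BiP, −0.18 ± 0.15. The BiP co-chaperones Dnajb9, Dnajb11 and Dnajc3 gave −0.22, −0.06 and −0.09, with 95% confidence intervals of −0.85 to 0.41, −0.37 to 0.26 and −0.48 to 0.31. Lectin chaperones and disulfide isomerases, which fold glycoproteins and form disulfide bonds, held 0 called members of 6 by limma (0 at an unadjusted p under 0.05), with a median of −0.07. Over all tested genes 19.9% were called. Calr and Canx, the calnexin cycle lectins, gave 0.01 ± 0.14 and −0.09 ± 0.11, and their partner Pdia3 −0.05 ± 0.15. P4hb, the archetypal disulfide isomerase, gave 0.08 ± 0.18, and Pdia4 and Pdia6 gave −0.27 ± 0.25 and −0.15 ± 0.21. In every one of these 14 folding genes the upper limit of the 95% interval lay under a 2-fold rise, and this held in all 18 alternative analyses. Only Creld2 had a lower limit past a 2-fold fall (−1.06). Of the 14 estimates, 12 lay below 0, with a median of −0.16. With median scaling 8 did (median −0.02), and without PCN replicate 2 also 8 (median −0.04). With spike-in scaling and without PCN replicate 1 all 14 did (medians −0.41 and −0.29).

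The folding genes differed more between PCN rats than between control rats. In all 14 the SD between PCN rats exceeded that between control rats, as in 60% of all tested genes, with medians of 0.31 and 0.10 (0.18 and 0.14 over all genes). PCN rat 1 was the highest of the 3 PCN rats in 13 of the 14 genes (35.1% of all genes), the exception being Hyou1, and PCN rat 2 the lowest in 10 (45.3%). Pdia6 shows it: controls stood at 3.38, 3.27 and 3.37 and PCN rats at 3.60, 2.77 and 3.20, the PCN rats lying on both sides of closely spaced controls. Dnajc3 showed the same, with a range of 0.04 over the controls against 0.62 over the PCN rats (3.30, 2.68 and 3.12). Other lists shared part of this order. PCN rat 2 was the lowest PCN rat in 5 of 7 translocation genes and in 4 of 5 degradation genes. PCN rat 1 was the highest in 4 and 2 of them. In the 35 other folding genes read below, PCN rat 1 was the highest in 65.7% and PCN rat 2 the lowest in 57.1%. The genes are not independent of each other, and no test was made of this pattern. On these 3 PCN arrays the 75th percentile of the signal was 594, 627 and 488 and the share of spots well above background 65.8%, 65% and 61.6%, so PCN rat 2 had the highest percentile, by which its signals were divided, and PCN rat 3 the lowest of both. The part of these differences in the pattern was not tested.

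**Figure D2:**
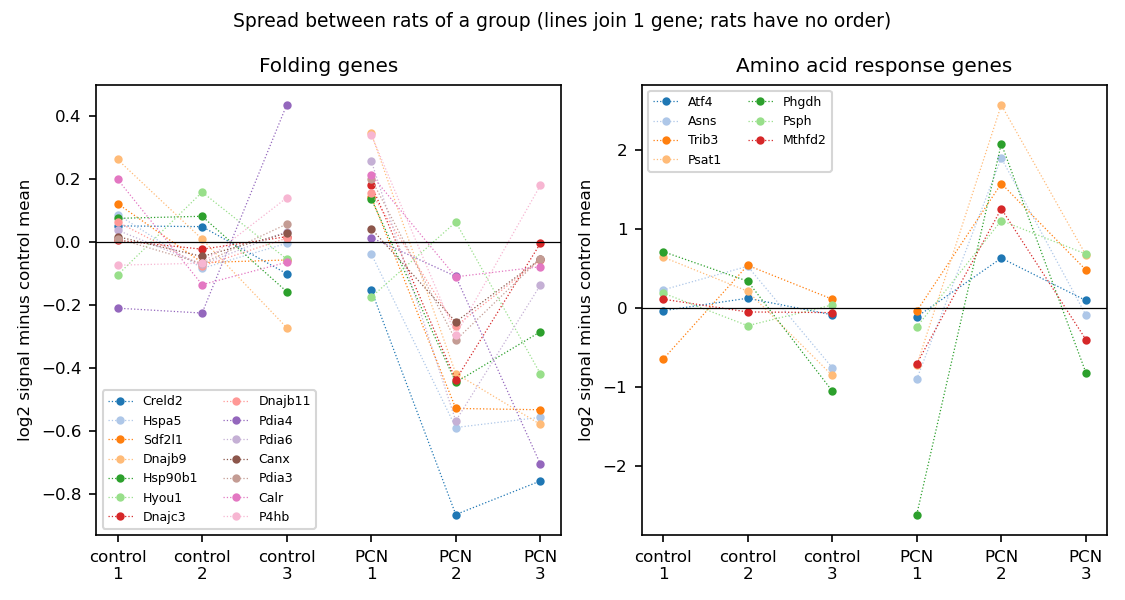
Log2 signal minus the control mean (vertical axis) in each rat (horizontal axis), for the 14 folding genes (left) and for Atf4, Asns, Trib3 and 4 serine and folate genes chosen after their values were seen (right); dotted lines join the values of 1 gene within a group and imply no order. Most folding genes are highest in PCN rat 1, and the genes on the right are highest in PCN rat 2; the 2 vertical axes differ in range.

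Of the 7 genes with the ERSE letters, 0 were called by limma, where 19.9% of all tested genes were. With 7 genes, a count of 0 says little. Creld2 and Xbp1 had unadjusted limma p of 0.0202 and 0.0108. In order of their log2 fold changes, the first 6 were Creld2 (−0.59), Hspa5 (−0.39), Hsp90b1 (−0.20), Canx (−0.09), Dnajc3 (−0.09) and Calr (0.01). The seventh, Xbp1, the transcription factor that IRE1 activates by splicing its messenger RNA, stood at 3.18, 4.14 and 3.54 in controls and 4.61, 4.71 and 4.23 with PCN. Every PCN rat lay above every control, and the change was 0.90 ± 0.26, which just missed the threshold (limma adjusted p = 0.053). It was called higher in 5 of 18 alternative analyses, among them median scaling, normexp and the fit without control replicate 2 (limma adjusted p = 0.028, 0.0443 and 0.0206), and gave 0.65 to 1.16 over all of them. Whether the probe distinguishes the spliced from the unspliced form was not examined.

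The sensors and factors of the stress response otherwise showed no call: 0 of 8 were called by limma (2 at an unadjusted p under 0.05), with a median of 0.19. The share called over all tested genes was 19.9%. Atf6 gave 0.18 ± 0.11 (0.19 at its second probe) and Ern1 −0.03 ± 0.21. Eif2ak3, which encodes PERK, the kinase that slows translation, stood at −1.94, −2.18 and −2.31 in controls and −2.32, −2.64 and −2.90 with PCN. The groups were separated by a narrow gap, and the change was −0.48 ± 0.18 (limma adjusted p = 0.106). Ddit3, which encodes the death-associated factor CHOP, gave −0.31 ± 0.17, with a 95% interval of −0.72 to 0.11.

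Atf4, its amino acid target Asns and Trib3 differed more between rats of a group than between groups. Asns, asparagine synthetase, stood at −1.46, −1.16 and −2.45 in controls and at −2.59, 0.21 and −1.78 with PCN. PCN rat 2 was the highest of the 6 arrays and PCN rat 1 the lowest, and the change was 0.30 ± 0.71 (limma adjusted p = 0.803), with a 95% interval of −1.39 to 2.00 that does not exclude a 2-fold change either way. Trib3, a pseudokinase induced by ATF4, gave 0.01, 1.20 and 0.77 in controls and 0.62, 2.24 and 1.14 with PCN, a change of 0.67 ± 0.46 (limma adjusted p = 0.354). Atf4 itself gave 3.45, 3.60 and 3.39 in controls and 3.37, 4.11 and 3.58 with PCN. All 3 were highest in PCN rat 2, and without it Asns gave −0.50, Trib3 0.22 and Atf4 −0.01.

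Most translocation genes had estimates above 0. Of 7 tested, 6 estimates lay above 0, as did 6942 of 16389 over all tested genes, and the median was 0.17. Called higher was 1 of the 7 (14.3%), where 4.37% of all tested genes were called higher and 19.9% in either direction. With 7 genes, 1 call says little about the list. Sec61g, the small γ subunit of the Sec61 channel, stood at 3.42, 3.59 and 3.60 in controls and at 4.10, 4.04 and 4.11 with PCN. The PCN rats were tightly grouped above all controls, and the gene was 1.46-fold higher (0.55 ± 0.10 on the log2 scale, limma adjusted p = 0.0117). Its second probe, at 2.71 ± 0.14 in controls and 3.22 ± 0.11 with PCN (mean ± SD, n = 3 each), gave 0.51 ± 0.12 (limma adjusted p over all tested probes = 0.0255). The call held without any 1 array (adjusted p at most 0.0425).

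The pore-forming subunit Sec61a1 gave −2.49, −2.22 and −2.17 in controls and −1.59, −2.15 and −1.68 with PCN, a change of 0.49 ± 0.18 (limma adjusted p = 0.1). PCN rat 2 lay next to the controls, and without it the change was 0.66 (limma adjusted p = 0.0298). Leaving out the lowest PCN rat could only raise the estimate, and no other fit with 1 array left out called the gene. Sec61a1 was also called higher with quantile normalization, cyclic loess and median scaling (limma adjusted p = 0.0375, 0.0462 and 0.0351). Sec61b, the third subunit, rested at 3.28 to 3.39 in controls and 3.49 to 3.52 with PCN, which did not overlap, at 0.17 ± 0.09 (limma adjusted p = 0.236). Among subunits of the translocon-associated complex, which aids the insertion of some signal peptides, Ssr1 gave 0.26 ± 0.09 (0.25 ± 0.14 at its second probe), Ssr2 0.10 ± 0.11 and Ssr3 0.05 ± 0.11. Sec63, which couples the channel to BiP, gave −0.08 ± 0.12. With spike-in scaling 3 of the 7 lay above 0, and the median was −0.08. The difference between folding and translocation genes was not tested.

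ER-associated degradation, which returns misfolded proteins to the proteasome, held 0 called members of 5 by limma (2 at an unadjusted p under 0.05), with estimates on both sides of 0 (median −0.04). Among all tested genes 19.9% were called. Herpud1, a scaffold of the degradation complex, stood at 4.35, 3.86 and 3.63 in controls and 3.27, 2.91 and 3.45 with PCN. All PCN rats lay below all controls, and the change was −0.73 ± 0.22 (limma adjusted p = 0.0618). Herpud1 was called lower in 3 of 18 alternatives: spike-in scaling, normexp and a trended robust fit (limma adjusted p = 0.00933, 0.0315 and 0.0475). Spike-in scaling lowered the estimates of all genes alike. With 1 array left out, 0 of the fits called it. Vcp, the ATPase that pulls substrates out of the membrane, gave 3.16, 3.14 and 3.19 in controls and 3.59, 3.32 and 3.66 with PCN. Controls were within 0.05 of each other and all PCN rats above them, at 0.36 ± 0.12 (limma adjusted p = 0.0794). Vcp was called higher in 3 of 18 alternatives: median scaling, a trended robust fit and the fit without PCN replicate 2. With spike-in scaling it gave 0.11. Sel1l and Syvn1, the core of the ubiquitin ligase, gave −0.28 ± 0.13 (−0.15 ± 0.20 at the second probe of Sel1l) and −0.04 ± 0.13, and the channel protein Derl1 gave 0.17 ± 0.10.

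Of 2 ER-shaping genes, 1 fell, where 15.5% of all tested genes were called lower. Rtn4, a reticulon that curves ER tubules, stood at 2.50, 1.84 and 2.05 in controls and at 1.35, 1.29 and 1.03 with PCN. Every PCN rat was below every control, and Rtn4 was 1.88-fold lower (−0.91 ± 0.19 on the log2 scale, limma adjusted p = 0.0186). Its second probe, at −1.72, −2.16 and −1.94 against −2.71, −3.30 and −3.21, gave −1.14 ± 0.19 (limma adjusted p over all tested probes = 0.00996). The call narrowly ended without control replicate 3 or PCN replicate 3 (adjusted p = 0.0507 and 0.0533) and with no filter on dim probes (0.0515), at changes of −0.95, −0.81 and −0.91. Ckap4, which spaces the membranes of ER sheets, gave −4.55, −4.21 and −4.29 in controls and −4.63, −4.91 and −5.09 with PCN. On 1 PCN array it was too dim to count as well above background, and its change was −0.53 ± 0.16 (limma adjusted p = 0.0591), or −0.15 with quantile normalization, −0.23 with cyclic loess and −0.06 with normexp.

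**Figure D3:**
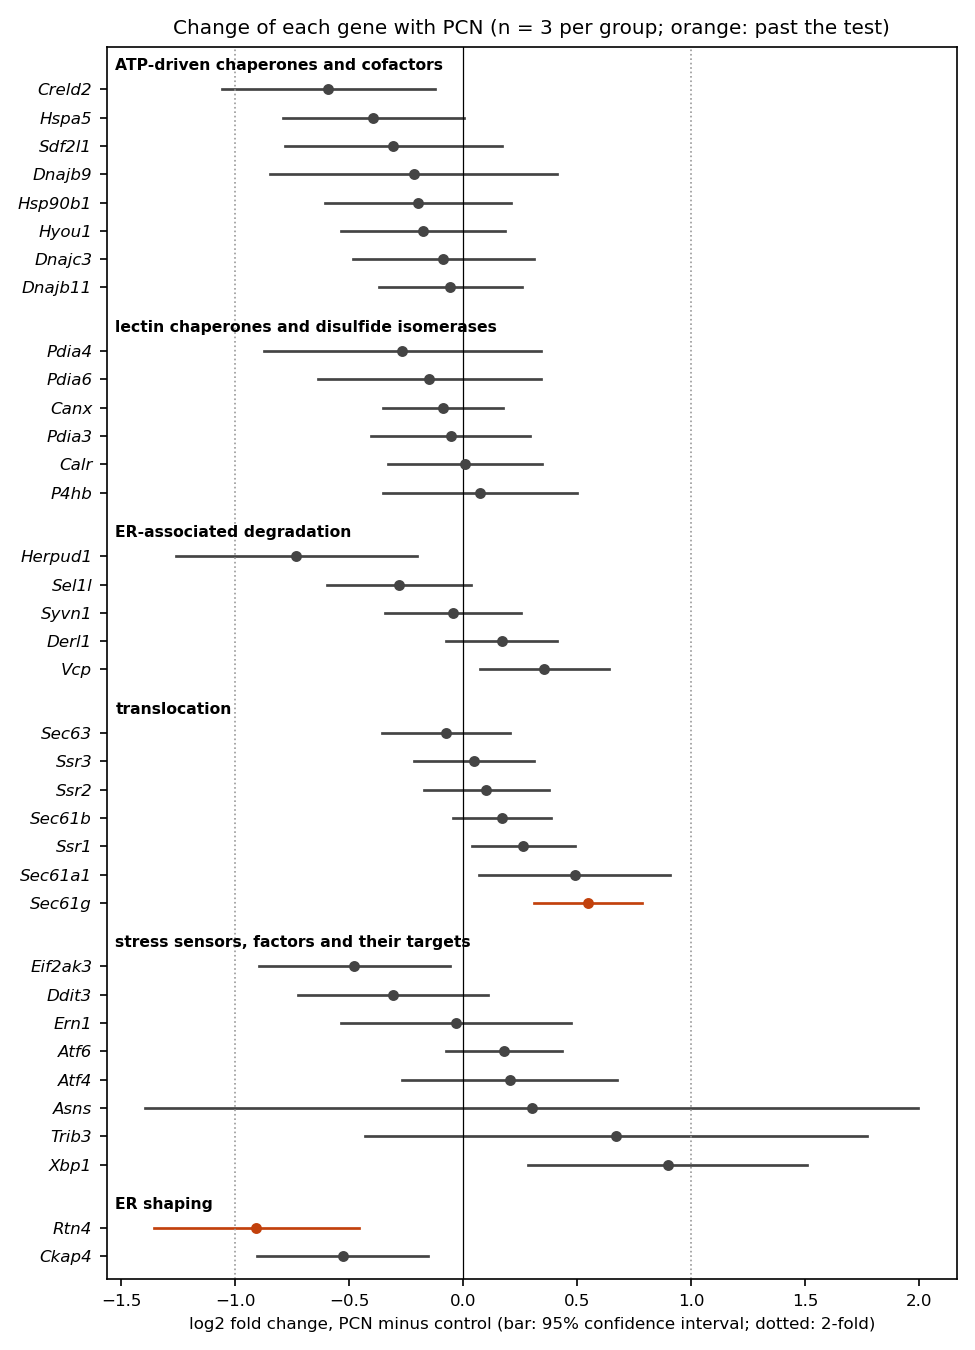
Log2 fold change of each tested ER gene, PCN minus control (horizontal axis; bars are 95% confidence intervals, dotted lines a 2-fold change, n = 3 per group), by role. Sec61g and Rtn4, in orange, passed the test; the intervals of Asns, Trib3 and Xbp1 are the only ones that reach past a 2-fold rise.

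A wider list of 205 genes of the same pathways was read beside these, of which 173 were tested: 15 rose and 6 fell (12.1%, against 19.9% of all genes), with a median of 0.09. Degradation genes took the largest share of the rises. Of 27 other degradation genes, 7 rose and 0 fell, with a median of 0.12. The 25.9% called there compares with 19.9% of all tested genes in either direction, 4.37% higher and 15.5% lower. Ufd1, which with Nploc4 forms the cofactor that recruits Vcp to ubiquitinated substrates, stood at 1.40, 1.73 and 1.65 in controls and 2.09, 2.39 and 2.30 with PCN, a rise of 0.67 ± 0.13 (limma adjusted p = 0.017). Nploc4 rose by 0.42 ± 0.10 (limma adjusted p = 0.0313). Ubxn4 and Ubxn8, ER membrane proteins with a UBX domain that binds Vcp, rose by 0.59 ± 0.11 and 0.54 ± 0.14, and Faf2, another UBX protein, by 0.41 ± 0.10 (limma adjusted p = 0.0118, 0.0346 and 0.0379). The ubiquitin ligase Rnf139 and the lipid droplet and ER protein Aup1 rose by 0.43 ± 0.09 and 0.39 ± 0.09. Rnf139, Aup1, Nploc4 and Faf2 were chosen after their values were seen, as was the reading of these genes around Vcp. The count of 7 was 2 without control replicate 1, 2 or 3 or PCN replicate 3, 4 without PCN replicate 1 and 5 without PCN replicate 2. It was 1 with no filter on dim probes and 0 with spike-in scaling, and Ubxn4 was called in all but the last of these.

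Among 47 other targeting, translocation and glycosylation genes, 4 rose and 0 fell, with a median of 0.13. The 8.51% called there were all higher, against 4.37% of all tested genes called higher. That share, and the 11.4%, 4.35% and 12.2% in the folding, shaping and stress lists that follow, were each below the 19.9% of all tested genes called in either direction. Emc9, a subunit of the membrane protein insertase EMC, stood at 0.35, 0.14 and 0.07 in controls and 1.11, 1.26 and 0.99 with PCN, a rise of 0.93 ± 0.12 (limma adjusted p = 0.00441) that was called in all 18 alternatives. Stt3a, a catalytic subunit of oligosaccharyltransferase, rose by 0.58 ± 0.12 and Srp54a, of the signal recognition particle, by 0.42 ± 0.09 (limma adjusted p = 0.0173 and 0.0211). Of 35 other folding genes 2 rose, Tor1a by 0.57 ± 0.12 and the BiP exchange factor Sil1 by 0.37 ± 0.10, and 2 fell, the disulfide isomerase Pdia5 by 0.61 ± 0.13 and Cnpy4 by 0.45 ± 0.12. The fall of Cnpy4, a dim probe, was called in 4 of 18 alternatives, and its value was −0.07 with quantile normalization, −0.15 with cyclic loess and −0.03 with normexp (limma adjusted p = 0.605, 0.292 and 0.876). In ER shaping and turnover 0 of 23 rose and 1 fell: Arl6ip1, which like the reticulons shapes tubules, by 0.55 ± 0.12 (limma adjusted p = 0.021), with controls at 2.79 to 2.99 and PCN rats at 2.21 to 2.51. Of 41 other stress sensing genes 2 rose, the amino acid transporter subunit Slc3a2 by 0.78 ± 0.20 and Yipf5 by 0.50 ± 0.10, and 3 fell: Mbtps2, the protease that releases ATF6, by 0.71 ± 0.15, Aldh18a1 by 0.63 ± 0.15 and Creb3l2 by 0.61 ± 0.16. Mbtps2 and Aldh18a1 are also dim, and neither was called with quantile normalization (−0.34 and −0.32), cyclic loess (−0.42 and −0.37) or normexp, where they gave −0.0068 and −0.13 (limma adjusted p = 0.969 and 0.406). Of the 16 genes named by rule from this wider list, Emc9 and Ubxn4 kept the call without any 1 array, and Ufd1 lost it without control replicate 1 (adjusted p = 0.0528). For the other 13 it ended in 3 to 6 of these 6 fits, the highest adjusted p being 0.125.

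**Figure D4:**
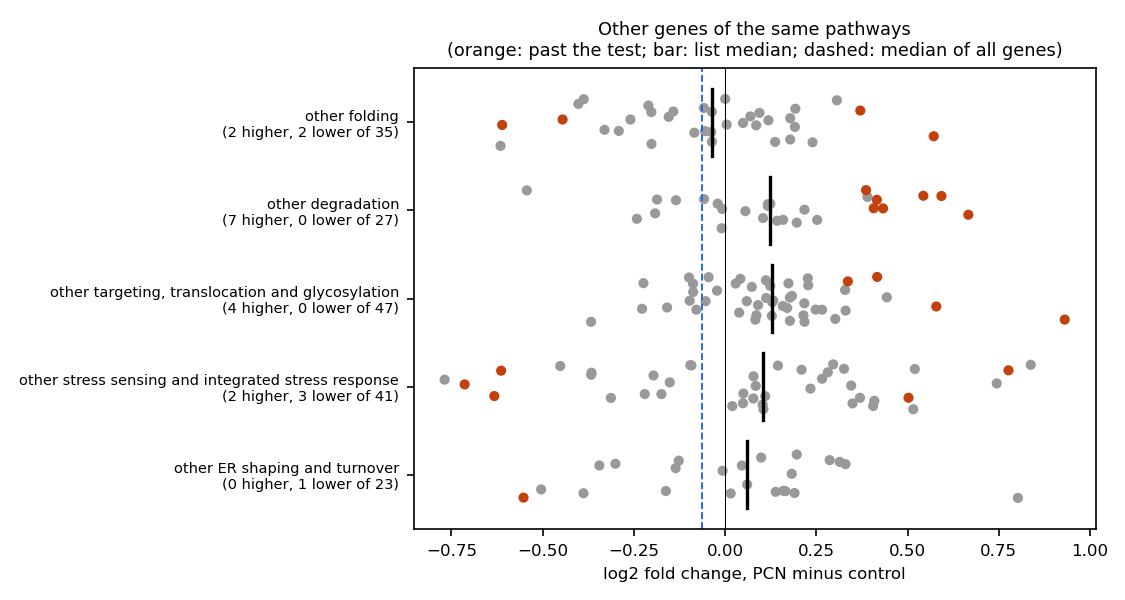
Log2 fold change, PCN minus control (horizontal axis), of the 173 tested genes of the wider lists, 1 point a gene, by list (vertical axis, points jittered); orange points passed the test, black bars are list medians and the dashed line is the median of all tested genes. Degradation genes hold 7 of the 15 rises, all between 0.39 and 0.67.

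The PCN arrays were dimmer than the control arrays: the 75th percentile of the signal was 633 to 758 in controls and 488 to 627 with PCN, without overlap. The share of spots well above background was 65.5% to 68.9% in controls and 61.6% to 65.8% with PCN, and all 6 arrays had 0 saturated spots. Hepatocyte markers were bright on every array, their summed signal running from 2334 to 2476 times the array's 75th percentile in controls and from 2117 to 2672 with PCN, with 1 of 9 tested markers called, Hnf4a, which was higher. Markers of other cells that are rich in ER were faint: the B and plasma cell list summed to 0.467 to 0.546 in controls and 0.265 to 0.589 with PCN (0 of 4 called), and of 5 pancreatic acinar markers 0 were bright enough to be tested, Pnlip and Prss1 being not well above background on any array. Kupffer cell markers summed to 64.4 to 74.7 in controls and 46.4 to 66.9 with PCN (0 of 9 called), T cell markers to 0.616 to 0.765 and 0.426 to 0.548 (2 of 5 lower), stellate markers to 13.2 to 14.0 and 12.2 to 14.3 (1 higher and 2 lower of 7), and endothelial markers to 23.9 to 26.4 and 22.5 to 26.0 (1 of 4 lower). Cholangiocyte markers summed to 0.376 to 0.489 in controls and 0.521 to 0.578 with PCN, without overlap (0 of 3 called), and red blood cell markers to 3.48 to 4.96 and 3.53 to 6.25 (0 of 3 called). Their part in the results was not tested. Each group occupied a slide of its own, which means that an effect of the slide and one of PCN cannot be told apart.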

How the data were processed

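Rat liver RNA (100 ng per rat) was measured on 1-colour Agilent arrays, 3 control and 3 PCN. Per the file headers, Feature Extraction (Agilent, version 10.7.3.1) gave the deposited intensity of each spot, background-subtracted within each array and not scaled between arrays. The quality marks (well above background, outlier, saturated) are those deposited, per the file headers. The authors' deposited value table, used as an alternative, holds a ratio: the signal of a spot over the 75th percentile of its array.

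From the intensities, log2 signal minus the array's 75th percentile over non-control spots was taken in R 4.3.3 with the data.table package (version 1.17.8). Outlier spots were left out, spots of a probe averaged, and probes kept if well above background on all 3 arrays of a group. Probes were named by transcript accession through RefSeq (GRCr8), since the files name genes by accession; a gene took its brightest probe. Groups were compared with limma 3.58.1 (lmFit, eBayes, no covariate, two-sided) over all 16389 genes, Benjamini-Hochberg adjusted p under 0.05, tested on simulated data. The precision is limited by the 3 arrays per group; the labels call them biological replicates. The files have no mean signal column, so normexp (offset 50) used the median signals. The array design names build rn4; promoter coordinates are GRCr8. Replicate numbers do not pair the rats (correlations of same-numbered deviations −0.10, −0.03 and −0.05).

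The genes, lists and tests were chosen with earlier results of these data known. All 40 genes are accounted for; of each wider list, up to 3 rises and 3 falls, the largest past the test with separated groups, are named, others being said to be chosen after their values. Alternatives were other scalings, background correction, the deposited table, filters, probe choice, outlier spots, a trended robust fit, the replicate block and each array left out.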

Additional observations from a re-analysis of the deposited data

How the results depend on the processing

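Over 18 alternatives, Sec61g was called in 17 and Rtn4 in 15. The 36 genes gave 2 higher calls with quantile normalization, cyclic loess, normexp or detection on all 6 arrays, 3 with a trended robust fit, 6 with median scaling and 0 with spike-in scaling. Their lower calls were 7 with spike-in scaling, 2 with normexp or the trended robust fit and 0 with no filter on dim probes. Their median was 0.092 with median scaling and −0.30 with spike-in scaling. Wider genes gave 33 higher with median scaling, 1 higher and 19 lower with spike-in scaling, and 2 higher and 0 lower with no filter, where 1967 genes were called in all. With the replicate block 2067 genes were called, 5 wider genes higher and 2 lower, and Sec61g and Rtn4 kept their calls. With each array left out in turn, 2023 to 2592 genes were called, 1 to 3 of the 36 higher and 0 to 5 lower, and 3 to 13 wider genes higher and 1 to 4 lower. The median of the 36 then ranged from −0.15 to 0.040.

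Signs turned only in genes that passed the test in neither analysis. Quantile normalization gave Calr −0.024, Canx 0.0088 and Ern1 0.35, and cyclic loess Calr −0.040 and Ern1 0.24. Median scaling gave Dnajb11 0.091, Dnajc3 0.061, Canx 0.059, Pdia3 0.093, Syvn1 0.10, Sec63 0.072 and Ern1 0.12. Spike-in scaling gave Calr −0.24, P4hb −0.17, Derl1 −0.079, Sec61b −0.079, Ssr2 −0.15, Ssr3 −0.20, Atf4 −0.045 and Atf6 −0.068, and normexp Calr −0.0032 and Ern1 0.11. With each array left out in turn, the log2 fold changes that crossed 0 ran over −0.094 to 0.11 for Calr, −0.15 to 0.18 for Ern1, −0.50 to 0.90 for Asns, −0.058 to 0.26 for P4hb, −0.16 to 0.049 for Dnajb11, −0.22 to 0.089 for Dnajc3, −0.18 to 0.074 for Pdia3, −0.35 to 0.061 for Pdia6, −0.15 to 0.031 for Syvn1, −0.15 to 0.018 for Sec63, −0.0095 to 0.36 for Atf4 and −0.0081 to 0.13 for Ssr3. The cause was not tested. With 3 rats per group, the interval reached a 2-fold change for 6 of the 36.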

Other observations

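Of the enzymes of serine synthesis and mitochondrial folate metabolism, known targets of ATF4, 4 ranged widely between treated rats and were chosen for that after their values were seen. Shmt2, of the same pathway, did not, with a 1.21-fold range among PCN rats that 60.9% of all tested genes exceeded. Phgdh, the first enzyme of serine synthesis, stood at log2 signals of 1.54, 1.17 and −0.22 in controls and of −1.79, 2.91 and 0.01 in PCN rats 1 to 3. PCN rats 1 and 2 thus differed 25.9-fold, a range exceeded by 0.0427% of all tested genes, while the group means gave −0.45 (limma adjusted p = 0.817). Psat1, the next enzyme, gave −1.34, −1.78 and −2.84 in controls and −2.71, 0.58 and −1.32 with PCN, a 9.81-fold range among PCN rats. Psph, the last, gave −1.11, −1.52 and −1.26 against −1.54, −0.19 and −0.61, and Mthfd2, of the folate cycle, −2.99, −3.15 and −3.16 against −3.81, −1.85 and −3.50. In all 4, as in Asns and Trib3, PCN rat 2 was the highest of the 6 arrays. Among the 41 stress sensing genes of the wider list, PCN rat 2 was the highest of the PCN rats in 20 (48.8%), against 30.1% of all tested genes. These 41 include the 4 genes just described, so that share is not independent of their choice. The folding genes ran the other way, with PCN rat 2 the highest PCN rat in 1 of 14.

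Other genes of the list were split. PCN rat 2 was also the highest of the 6 arrays for Slc3a2, Shmt2, Atf3 and the tRNA synthetases Nars1, Sars1, Aars1 and Wars1. Of the other tRNA synthetases tested in this list, Mars1 was highest in PCN rat 3 and Eprs1 in PCN rat 1. For Eprs1, PCN rat 2 was the lowest PCN rat. Nor was PCN rat 2 the highest array for some known ATF4 targets. Chac1 gave 0.04, 0.02 and 0.19 with PCN, Atf5 4.20, 4.11 and 4.49, and Ddit3 1.29, 1.04 and 0.94. PCN rat 2 was the lowest PCN rat in 14 of the 41 (34.1%, against 45.3% of all tested genes). It was the lowest of all 6 arrays for Atf5, Sesn2 (−2.79), Cth (1.14) and Aldh18a1 (−4.32), among others. Fgf21, a liver hormone of the stress and fasting responses, gave −0.42, −1.06 and −0.94 in controls and −2.60, −0.64 and −1.48 with PCN, so its lowest array, like that of Phgdh and Mthfd2, was PCN rat 1. No label distinguishes these rats within the group.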
